A study of Mus musculus with 2 samples.

Results

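The 31 genes described here make sterols and fatty acids or control that supply: 18 enzymes of cholesterol synthesis, 7 enzymes of fatty acid synthesis, elongation and desaturation, and 6 regulators and sterol carriers. They were taken by name from a list, and all 31 were found among the 32285 genes of the 2 deposited count tables. The study sorted endothelial and hematopoietic cells from mouse liver at postnatal day 15 and sequenced them in droplets, with 1 control library, whose genotype label reads WT, and 1 library from c-Maf KO endothelial cell mice. Each library pooled 1 male and 1 female mouse. The allele, the Cre driver and the markers used for the sort are not stated in the labels used here. c-Maf, encoded by Maf, is a basic leucine zipper transcription factor.

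Animal cells build cholesterol from acetyl-CoA through the mevalonate pathway to squalene and lanosterol and then through a series of steps in the endoplasmic reticulum. Fatty acid synthase joins the same precursor into palmitate, which elongases and desaturases modify. Both supplies are set by the SREBP transcription factors: when membrane sterol is low, SCAP carries SREBP to the Golgi for cleavage, and when it is high, INSIG proteins hold SCAP back. In the liver, hepatocytes do most of this synthesis, and the endothelium lines the blood space they exchange lipoproteins with.

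The levels below are unique molecular identifiers (UMIs) of a gene summed over the cells of a class and divided by all UMIs of those cells, in the usual unit of CPM, taken within each class and library. With 1 library per group no test between groups was possible, no p-value was computed, and every interval is a 95% interval for counting error only. Calls rest on size: a level had to differ by 1.5-fold or more, its interval had to leave out a ratio of 1, and the 2 sums together had to hold 50 UMIs. The annotated cells numbered 7669 in the control and 8166 in the c-Maf KO library, with 45157041 and 51774798 UMIs. Endothelial cells (clusters S, S2, KOS_1, KOS_2 and KOS_3, taken as sinusoidal, with PV and C-EC) numbered 2948 and 2991, with a median of 4986 and 7320 UMIs per cell. The libraries shared 21 annotated barcodes. Fewer cells with a transcript and less RNA per cell cannot be told apart in such sums.

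The targeted gene and the cell composition differed between the libraries before any lipid gene was considered. Maf stood at 2070 CPM in control and 162 CPM in c-Maf KO endothelial cells. Of the c-Maf KO cells, 223 in cluster S and 113 in cluster S2 still held Maf at 1457 and 1998 CPM, beside 1578 and 2327 CPM in the control clusters S and S2, while the 1356 cells of KOS_1 held 9.32 CPM. Sums over 6 general endothelial markers were 5771 and 4455 CPM, and sums over 7 sinusoidal markers were 10747 and 2968 CPM. All 10 listed cycling markers were called higher, with sums of 246 and 730 CPM. Sums over 6 B lineage markers were 47.7 and 102 CPM in endothelial cells, with 5 of 6 called higher, against 8160 to 13005 CPM in the B cell clusters. The hepatocyte list had 7 of 10 members called lower, with sums of 180 and 63.7 CPM and Mup3 at 0 in both libraries. Kupffer markers were at 266 and 24.0 CPM, with 5 of 6 called lower, and mesenchymal markers at 51.9 and 22.0 CPM, with 4 of 6 lower. Large vessel markers were at 538 and 913 CPM, with 3 of 6 called higher. The part of these shifts in the values below was not tested.

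SREBPs bind sterol regulatory elements beside CCAAT boxes, which bind NF-Y. In the 250 bases before the start site (RefSeq, GRCm38.p6), 25 of the 31 members had an entry. CCAAT, read on both strands, lay in 19 of these 25 (76.0%), against 37.5% of 27025 genes. The element letters TCACNCCAC, read on both strands, lay in 1 of 25 members and in 1.23% of the 27025 genes, and the E-box letters CACGTG in 5 of 25 members and 6.86% of all genes. A match in these letters is a description and not a bound site.

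The windows of 3 genes are shown. That of Fasn, a fatty acid enzyme called higher in endothelial cells, comes first. Next is that of Hmgcs1, which holds the only element match among the members read. Last is the distal start of Insig2, the regulator called lower. Capitals mark CCAAT, or ATTGG on the other strand, and in Hmgcs1 also TCACCCCAC, whose first base lies at -137 from the start site. The Fasn window is chr11:120824548-120824797 on the minus strand, the Hmgcs1 window chr13:119690101-119690350 on the plus strand, and the Insig2 window chr1:121332590-121332839 on the minus strand.
Fasn: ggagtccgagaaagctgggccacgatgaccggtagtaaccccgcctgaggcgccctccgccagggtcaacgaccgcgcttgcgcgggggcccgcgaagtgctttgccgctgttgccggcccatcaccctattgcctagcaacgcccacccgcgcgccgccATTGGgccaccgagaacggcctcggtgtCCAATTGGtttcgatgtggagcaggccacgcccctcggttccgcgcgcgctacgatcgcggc
Hmgcs1: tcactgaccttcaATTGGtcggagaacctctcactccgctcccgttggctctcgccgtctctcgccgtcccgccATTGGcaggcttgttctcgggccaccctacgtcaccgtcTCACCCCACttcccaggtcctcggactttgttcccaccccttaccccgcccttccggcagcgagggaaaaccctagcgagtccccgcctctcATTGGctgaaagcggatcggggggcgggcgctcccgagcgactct
Insig2: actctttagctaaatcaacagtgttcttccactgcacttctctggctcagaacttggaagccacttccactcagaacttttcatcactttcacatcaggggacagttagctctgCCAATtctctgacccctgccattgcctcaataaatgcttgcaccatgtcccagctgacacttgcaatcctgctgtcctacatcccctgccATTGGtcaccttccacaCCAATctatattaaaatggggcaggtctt
Each of the 3 windows holds 3 CCAAT matches, and in Fasn the last pair overlaps in a palindrome.

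The clearest endothelial differences among the 31 genes were higher squalene epoxidase, lanosterol demethylase, fatty acid synthase and a fatty acid elongase, and lower Insig2, in the c-Maf KO library. The genes below lie, in mm10, at chr15:59315077-59331192 on the plus strand (Sqle), chr5:4081145-4104746 on the minus strand (Cyp51), chr17:12942890-12960747 on the minus strand (Acat2), chr11:120805846-120824547 on the minus strand (Fasn), chr3:129532355-129638495 on the plus strand (Elovl6) and chr1:121304353-121332589 on the minus strand (Insig2). Each is annotated as protein coding. The 5 members called higher were Sqle, Cyp51, Acat2, Fasn and Elovl6, out of 30 that reached 50 UMIs, beside 14.2% of all genes called higher. Only Insig2 was called lower, beside 15.5% of all genes. The share of members called higher was near that of all genes, so the counts say nothing particular of the list. Lss, lanosterol synthase, with 4 and 5 UMIs, could not be called. Sqle, Cyp51, Acat2 and Elovl6 had under 50 UMIs in the control sum and reached the minimum through the c-Maf KO sum.

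Sqle, the oxygen-using enzyme that turns squalene into its epoxide, stood at 0.801 CPM in control (13 UMIs) and 4.02 CPM in c-Maf KO endothelial cells (91 UMIs). Its log2 ratio of 2.28 (1.48 to 3.29) was the highest of the 31 genes, and the intervals of the levels did not overlap. Cyp51, lanosterol 14-alpha demethylase, was at 1.66 and 4.38 CPM, a log2 ratio of 1.38 (0.77 to 2.07). Cyp51 shares exon sequence with Akap9 on the opposite strand. Acat2, the cytosolic thiolase that starts the pathway from acetyl-CoA, was at 2.71 and 4.42 CPM, a log2 ratio of 0.70 (0.18 to 1.252). The Acat2 call was lost without cells carrying a cycling marker, where the log2 ratio was -0.13, and without the C-EC cluster (0.31).

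The early mevalonate enzymes differed less. Hmgcs1, which condenses acetyl units to HMG-CoA, was at 26.5 and 31.3 CPM, and the kinases Mvk and Pmvk had log2 ratios of 0.37 and 0.25. Mvd, the decarboxylase, had 5.54 and 7.52 CPM, and Idi1, the isomerase of the isoprenoid unit, 5.60 and 8.13 CPM. Fdps, farnesyl diphosphate synthase, was at 16.4 and 24.5 CPM, a log2 ratio of 0.58 (0.36 to 0.79) just inside the 1.5-fold limit. Fdps shares exon sequence with the predicted gene Gm43738 on the same strand, so part of its reads is uncertain. Fdft1, squalene synthase, had a log2 ratio of 0.23 (-0.11 to 0.59). These 7 values all lay above 0, and the interval reached below 0 for Fdft1.

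Among the late sterol enzymes the values lay on both sides of 0. Nsdhl and Dhcr7, which act after lanosterol and at the last reduction, had log2 ratios of 0.41 and 0.38. Ebp, the sterol isomerase, was at 42.3 and 46.3 CPM, and Hsd17b7 at 2.65 and 3.18 CPM. On the other side, Msmo1, the C4-methyl oxidase, was at 19.9 and 14.3 CPM, a log2 ratio of -0.47 (-0.70 to -0.25). Sc5d, the sterol desaturase, was at 8.31 and 6.06 CPM (-0.46, -0.81 to -0.10), and Tm7sf2, a sterol reductase that shares exon sequence with Vps51 on the same strand, was at 2.89 and 2.08 CPM. None of these 3 passed 1.5-fold.

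The median log2 ratio was 0.37 over the 17 sterol enzymes with at least 20 UMIs, of which 14 lay above 0, beside a median of -0.08 over 13288 genes. Their summed level was 189 CPM in control and 223 CPM in c-Maf KO endothelial cells, a log2 ratio of 0.24 (0.17 to 0.30).

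**Figure D1:**
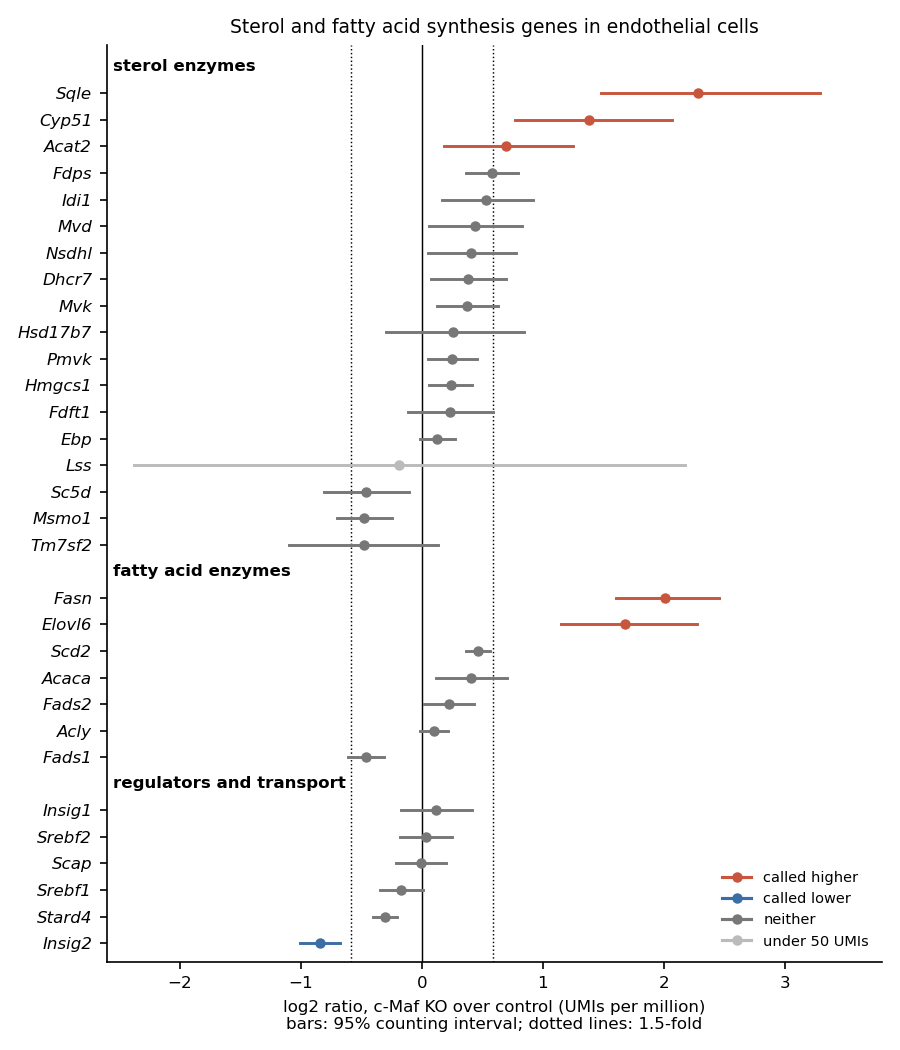
Log2 of the c-Maf KO level over the control level in endothelial cells for each of the 31 genes, grouped by role and ordered by ratio within a role, with bars for the 95% counting interval and dotted lines at 1.5-fold in either direction. Sqle (2.28), Fasn (2.01), Elovl6 (1.68) and Cyp51 (1.38) stand to the right of the other members, and Insig2 (-0.84) to the left.

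Of the fatty acid genes, Fasn differed most. Fasn, the multifunctional synthase of palmitate, was at 3.45 CPM in control (56 UMIs) and 14.0 CPM in c-Maf KO endothelial cells (316 UMIs), a log2 ratio of 2.01 (1.60 to 2.46). Elovl6, which elongates palmitate, was at 2.09 and 6.76 CPM, a log2 ratio of 1.68 (1.15 to 2.27), and shares exon sequence with Gm35986 on the opposite strand. For both genes the intervals of the 2 libraries were far apart. No single cell carried the difference: the cell with most Fasn UMIs held 7.14% of them in control and 2.53% in c-Maf KO, and Fasn was seen in 51 and 269 cells.

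The enzymes before and after the synthase differed less. Acly, which makes cytosolic acetyl-CoA from citrate, was at 63.5 and 68.0 CPM, and Acaca, acetyl-CoA carboxylase, at 9.24 and 12.3 CPM (log2 ratio 0.41, 0.12 to 0.71). Scd2, a desaturase that makes oleate, was at 72.9 and 101 CPM, a log2 ratio of 0.46 (0.36 to 0.57) under the 1.5-fold limit. The polyunsaturated fatty acid desaturases went apart, with Fads1 at 47.2 and 34.3 CPM (-0.46, -0.61 to -0.31) and Fads2 at 19.95 and 23.3 CPM (0.22, 0.02 to 0.43). The median over the 7 fatty acid enzymes was 0.41, and their summed level was 218 and 259 CPM.

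Of the 6 regulators only Insig2 was called, as lower, beside 15.5% of all genes called lower. Insig2, one of the proteins that retain SCAP in the endoplasmic reticulum, was at 42.4 CPM in control (689 UMIs) and 23.7 CPM in c-Maf KO (536 UMIs), a log2 ratio of -0.84 (-1.01 to -0.68). Its paralog Insig1, itself an SREBP target, was at 10.2 and 11.1 CPM. Srebf1 was at 28.9 and 25.7 CPM, Srebf2 at 18.5 and 19.0 CPM and Scap at 20.7 and 20.6 CPM, each with an interval of the ratio that includes 0. Srebf1 shares exon sequence with Rai1 on the opposite strand. Stard4, a cytosolic sterol carrier, was at 92.3 and 74.8 CPM (-0.30, -0.41 to -0.20). SREBP activity is controlled by cleavage, which these counts do not measure. The median over the 6 regulators was -0.09.

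Cycling cells were more frequent in the c-Maf KO library, and the members were therefore read apart from them. After each cell was thinned to 1128 UMIs, a cycling marker was carried by 185 of 2585 endothelial cells in the control (7.16%) and by 585 of 2760 in the c-Maf KO library (21.2%). The 363 and 231 shallower cells were left out. Among the cells without a marker, Fasn was at 2.22 and 10.6 CPM, a log2 ratio of 2.17 (0.95 to 3.83). Elovl6 was at 2.22 and 7.74 CPM there, and Cyp51 at 1.48 and 6.52 CPM. Sqle had 0 UMIs in control, where a floor of 3 counts would allow 1.11 CPM, and 9 UMIs (3.67 CPM) in c-Maf KO. Insig2 was at 45.8 and 25.3 CPM in these cells. The thinned values come from 1 random draw and few UMIs. In another draw over all endothelial cells, with or without a marker, the Cyp51 log2 ratio was 0.39, against 1.38 at full depth, while Sqle gave 2.05, Elovl6 2.29 and Fasn 3.51, all 4 under 50 UMIs. At full depth, where 530 control and 1347 c-Maf KO cells carried a marker, the cells without one gave log2 ratios of 1.98 for Fasn, 1.98 for Elovl6, 2.09 for Sqle, 1.48 for Cyp51 and -0.73 for Insig2. The direction was the same for these 5 genes in both readings, but Sqle and Cyp51 fell under 50 UMIs, so Fasn and Elovl6 were the 2 members still called higher at full depth. Thinned cells with a marker held too few UMIs of these genes to compare, with 1 and 5 for Fasn.

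Each library joined a male and a female mouse, and the mix of the sexes differed between the libraries. By transcripts of Xist or of Y-linked genes, 772 control and 1692 c-Maf KO endothelial cells were of female type, and 846 and 328 were of male type. The Fasn log2 ratio was 1.54 between female-type cells and 2.77 between male-type cells, and Insig2 gave -0.84 and -0.99. Sqle gave 1.79 and 4.43, the latter under 50 UMIs. Cyp51 gave 0.76 in female-type cells, where it was not called, and 3.95 in male-type cells, under 50 UMIs. The sign was the same in both types for these 4 genes, and whether the types differ was not tested.

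The sinusoidal clusters held most of the endothelial cells. There Sqle was at 0.527 and 3.78 CPM (log2 ratio 2.76, 1.78 to 4.11), Cyp51 at 1.19 and 4.001 CPM (1.72, 0.99 to 2.59), Fasn at 3.03 and 14.3 CPM (2.22, 1.78 to 2.72) and Elovl6 at 2.18 and 6.50 CPM (1.56, 1.01 to 2.18). With Fdps at 16.2 and 24.4 CPM (0.59, 0.36 to 0.82) these were the 5 members called higher of 30, beside 13.4% of all genes. Insig2, at 43.1 and 23.8 CPM, was again the 1 called lower, beside 15.4%. Acat2 was at 2.77 and 3.001 CPM in sinusoidal cells and was not called.

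Within the sinusoidal clusters the control clusters S and S2 had overlapping intervals for Sqle, Fasn and Elovl6. Sqle stood at 1.17 and 0.342 CPM, Fasn at 2.93 and 2.74 CPM and Elovl6 at 2.05 and 2.22 CPM. The 3 clusters KOS_1, KOS_2 and KOS_3 were found almost wholly in the c-Maf KO library. Their c-Maf KO cells held Fasn at 14.2, 30.5 and 12.4 CPM, higher than control S and S2. The 21 control cells of KOS_2 held Fasn at 80.9 CPM (22.1 to 207), from 4 UMIs, so its level in KOS_2 was not lower in control. In the c-Maf KO cells of the 3 clusters Sqle was at 4.05, 3.29 and 4.96 CPM. Its KOS_2 and KOS_3 levels rest on 4 UMIs each, with intervals of 0.897 to 8.43 and 1.35 to 12.7 CPM. Both overlap the control S interval of 0.3191 to 2.9986 CPM. For Sqle, only the KOS_1 interval (57 UMIs, 3.07 to 5.25 CPM) lay above those of both control clusters. KOS_2 carried megakaryocyte markers summing to 910 CPM, against 55.1 CPM in KOS_1, and its median depth was 1645 UMIs. Without KOS_2 the Fasn log2 ratio in endothelial cells was 2.01, as with it. Of its Maf-holding cells the c-Maf KO library gave Fasn at 8.48 CPM in S (8 UMIs) and 2.06 CPM in S2 (2 UMIs), with intervals of 3.66 to 16.7 and 0.249 to 7.43 CPM.

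**Figure D2:**
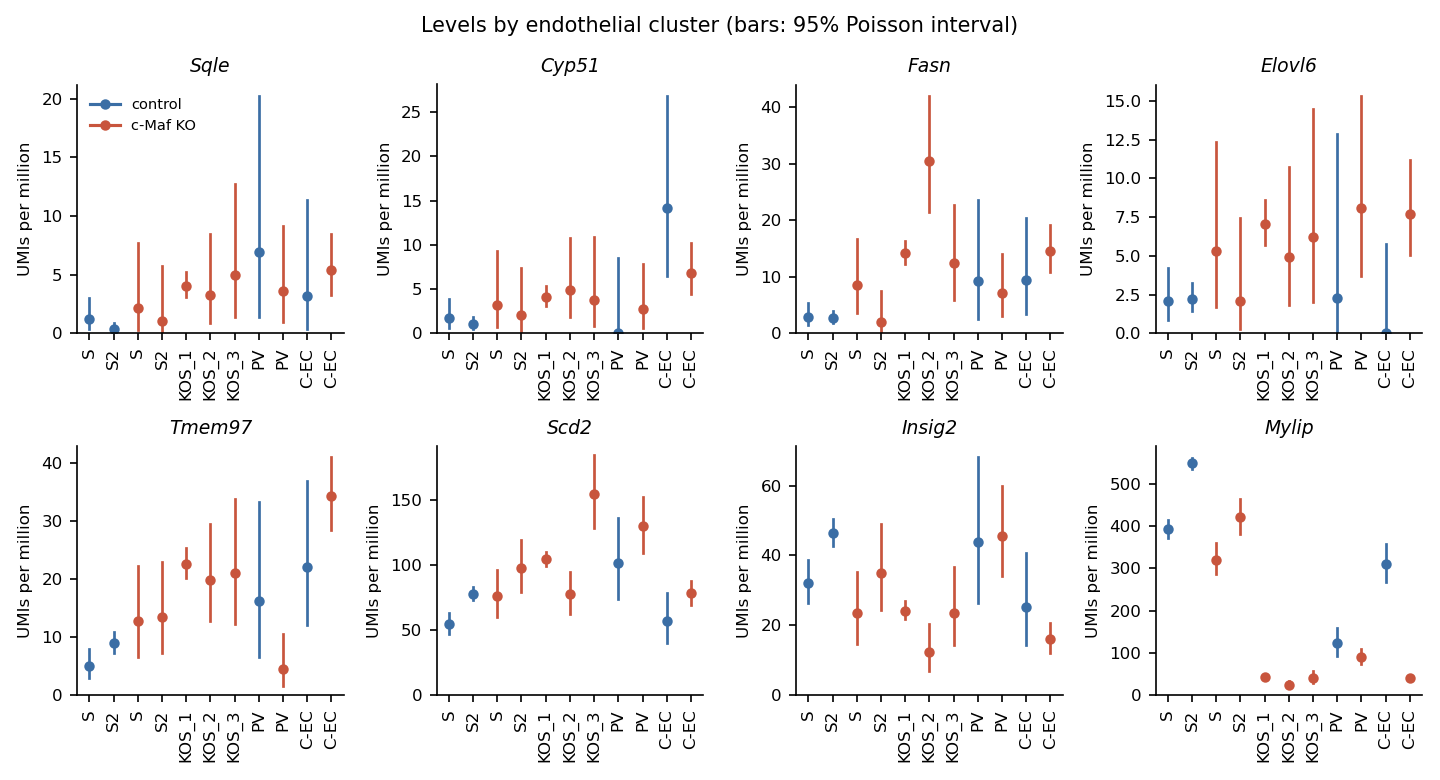
Level in CPM of 8 genes in the endothelial clusters of the control (blue) and c-Maf KO (red) libraries, with 95% Poisson intervals and axes that start at 0. The few control cells of KOS_1, KOS_2 and KOS_3 are not drawn. Sqle, Fasn and Elovl6 are low in the control clusters S and S2 and higher in KOS_1, while Mylip is at 550 CPM in control S2 and 41.9 CPM in KOS_1.

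The Maf-holding and Maf-poor sinusoidal cells of the c-Maf KO library share that library, pooled from 1 male and 1 female mouse. The labels do not give the mouse of each cell. These cells were compared as a description, since the clusters were made from all genes. KOS_1 over S and S2 together gave 3 of 28 members called higher, beside 10.4% of all genes, and 0 called lower, beside 13.1%. Fasn was at 5.22 CPM in S and S2 (10 UMIs) and 14.2 CPM in KOS_1 (200 UMIs), a log2 ratio of 1.38 (0.54 to 2.53). Mvd was at 4.18 and 8.68 CPM (0.97, 0.03 to 2.30) and Fdps at 15.1 and 26.0 CPM (0.76, 0.23 to 1.38). Mvd had 4 UMIs in S and 4 in S2, against 122 in KOS_1. All 3 genes had under 50 UMIs in S and S2 together and reached the minimum through KOS_1, where they were higher. Sqle, at 1.57 and 4.05 CPM, had a log2 ratio of 1.16 with an interval of -0.25 to 3.69, from 3 UMIs in S and S2, and Elovl6, at 3.66 and 7.04 CPM, one of 0.85 (-0.15 to 2.30). Insig2, at 29.2 and 24.1 CPM, differed by a log2 ratio of -0.29 (-0.69 to 0.16) and was not called.

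Cells of clusters S and S2 were then compared between libraries. Of 24 members that reached the minimum, 0 were called higher, beside 3.68% of all genes, and 0 lower, beside 3.75%. Insig2 was at 43.3 CPM in control and 29.2 CPM in c-Maf KO cells of these clusters, a log2 ratio of -0.55 (-0.99 to -0.17) short of 1.5-fold. Fasn was at 2.78 and 5.22 CPM (0.96, -0.25 to 1.93). The wide intervals come from the 1914997 UMIs of these clusters in the c-Maf KO library. Clusters S and S2 held 3415433 and 11696757 UMIs in control, against 943223 and 971774 in c-Maf KO. Within S, Insig2 was at 32.2 CPM in control (26.5 to 38.8) and 23.3 CPM in c-Maf KO (14.6 to 35.3). Within S2 it was at 46.5 (42.7 to 50.6) and 35.0 CPM (24.2 to 48.9), so the intervals overlapped in each cluster. The part of the cluster mix in the pooled ratios was not tested.

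The cluster C-EC, which holds cycling endothelial cells, and the large vessel cluster PV had fewer counts. C-EC had 89 cells in the control and 408 in the c-Maf KO library, and 0 of 19 members were called higher, beside 5.7% of all genes, and 3 lower, beside 14.6%. The 3 were Fads1 at 70.6 and 40.2 CPM, Fads2 at 62.7 and 39.9 CPM and Srebf1 at 42.3 and 25.4 CPM. Fasn was at 9.41 and 14.5 CPM there, a log2 ratio of 0.53 (-0.59 to 2.14), and Cyp51 at 14.1 and 6.84 CPM. Elovl6 had 0 UMIs in control C-EC and 27 in c-Maf KO (7.70 CPM). In PV, with 56 and 135 cells, 7 members reached the minimum. Fads2, at 59.9 and 34.9 CPM, was called lower, beside 6.26% of all genes, and 0 were called higher, beside 6.08%. Insig2 was at 43.8 and 45.7 CPM in PV, a log2 ratio of 0.04 (-0.72 to 0.90). Whether the ratios of PV or C-EC differ from those of sinusoidal cells was not tested.

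Of 12 listed fatty acid genes outside the 31 that reached the minimum, 1 was called higher, the acyl-CoA synthetase Acsl3 at 12.3 and 19.2 CPM, which shares exon sequence with Utp14b on the same strand, and 2 lower, Acss2 and Acsl4, beside the 14.2% and 15.5% of all genes.

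Among genes of sterol uptake, storage and efflux, Mylip, the ubiquitin ligase that is also a target of LXR, was at 495 and 70.9 CPM (-2.80, -2.88 to -2.73). Tmem97, a sterol-responsive membrane protein, was at 8.74 and 22.5 CPM (1.36, 1.09 to 1.64). Abca1, the cholesterol exporter and another LXR target, was at 130 and 64.0 CPM (-1.03, -1.13 to -0.93), and Soat1, which esterifies cholesterol, at 55.2 and 29.1 CPM (-0.92, -1.07 to -0.78). Of 8 uptake and traffic genes 3 were called lower and others higher, Tmem97 among them. Of 7 LXR and efflux genes 1 was called higher and 2 lower. The shares of all genes beside these counts are the same as above. Among 8 genes of SREBP processing, Erlin2, a protein of the complex that degrades INSIG, was the 1 called lower (40.0 and 22.3 CPM), and 0 were higher.

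Within the c-Maf KO library, Tmem97 and Acsl3 were called higher and Mylip and Soat1 lower in KOS_1 against S and S2. Of all genes, 10.4% were called higher and 13.1% lower there. These genes were picked by their endothelial ratio, and KOS_1 holds 14059095 of the 22621086 c-Maf KO endothelial UMIs in it. The shared direction is therefore not independent of the first comparison. Tmem97 and Acsl3 had under 50 UMIs in S and S2 and reached the minimum through KOS_1. From S and S2 to KOS_1, Tmem97 went from 13.1 to 22.6 CPM (0.77, 0.20 to 1.44) and Acsl3 from 9.40 to 20.8 CPM (1.11, 0.46 to 1.92). Mylip went from 372 to 41.9 CPM (-3.15, -3.31 to -2.99) and Soat1 from 48.0 to 28.2 CPM (-0.78, -1.10 to -0.43). Abca1 was at 83.0 and 63.7 CPM there and was not called. In the cycling cluster Mylip was at 311 and 40.2 CPM in control and c-Maf KO, while in PV it was at 122 and 89.5 CPM, a log2 ratio of -0.45 (-0.94 to 0.06). Abca1 in PV was at 53.0 and 124 CPM, higher in c-Maf KO (1.20, 0.58 to 1.93), against the lower value in sinusoidal cells (-1.04, -1.14 to -0.93).

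Depth differed between the libraries, so the share of cells with a UMI was taken at 1128 UMIs per cell. Fasn was seen in 0.271% of endothelial cells in the control (0.109 to 0.557) and 1.12% in the c-Maf KO library (0.764 to 1.59). Sqle was seen in 0.0774% and 0.326%. Without thinning the Fasn shares were 1.73% and 8.99%. No cell type here is known to lack these enzymes. In B3, a mature B cell cluster whose median depth was 4414 and 3612 UMIs, the thinned Fasn share was 0.963% and 1.46% and that of Sqle 0.481% and 0.209%, so the endothelial shares of these 2 genes lay within or below the B cell intervals (0.59 to 2.99% for Fasn in c-Maf KO). Insig2 went the other way, from 4.84% (4.04 to 5.73) to 2.39% (1.85 to 3.03), and Mylip from 39.4% to 7.97%.

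Across cell types, the cluster the authors named CMP stood highest in sterol enzymes. Their summed level was 724 CPM (682 to 767) in 159 control cells and 888 CPM (833 to 946) in 141 c-Maf KO cells. This cluster carried plasmacytoid dendritic markers summing to 11242 and 11400 CPM. Among clusters with at least 50 cells in each library, Leukocytes_1 came next at 360 and 337 CPM, then T-Foxp3 at 295 and 299.9 CPM, C1, a cycling cluster, at 288 and 302 CPM and CLP at 288 and 285 CPM, which differed from each other by less than their intervals. The sinusoidal clusters S and S2 were at 186 CPM each in control, close to Kupffer cells (K) at 193 CPM. Sqle was also highest in control CMP cells, at 37.3 CPM, but single enzymes did not follow the order of the sums: it was at 8.06 CPM in C1, 3.83 CPM in B3, 1.39 CPM in B2 and 0.342 CPM in S2, and had 0 UMIs in T-Gzm. Fatty acid enzymes were summed to 301 CPM in control K and 285 CPM in CMP, and to 70.7 CPM in neutrophils.

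**Figure D3:**
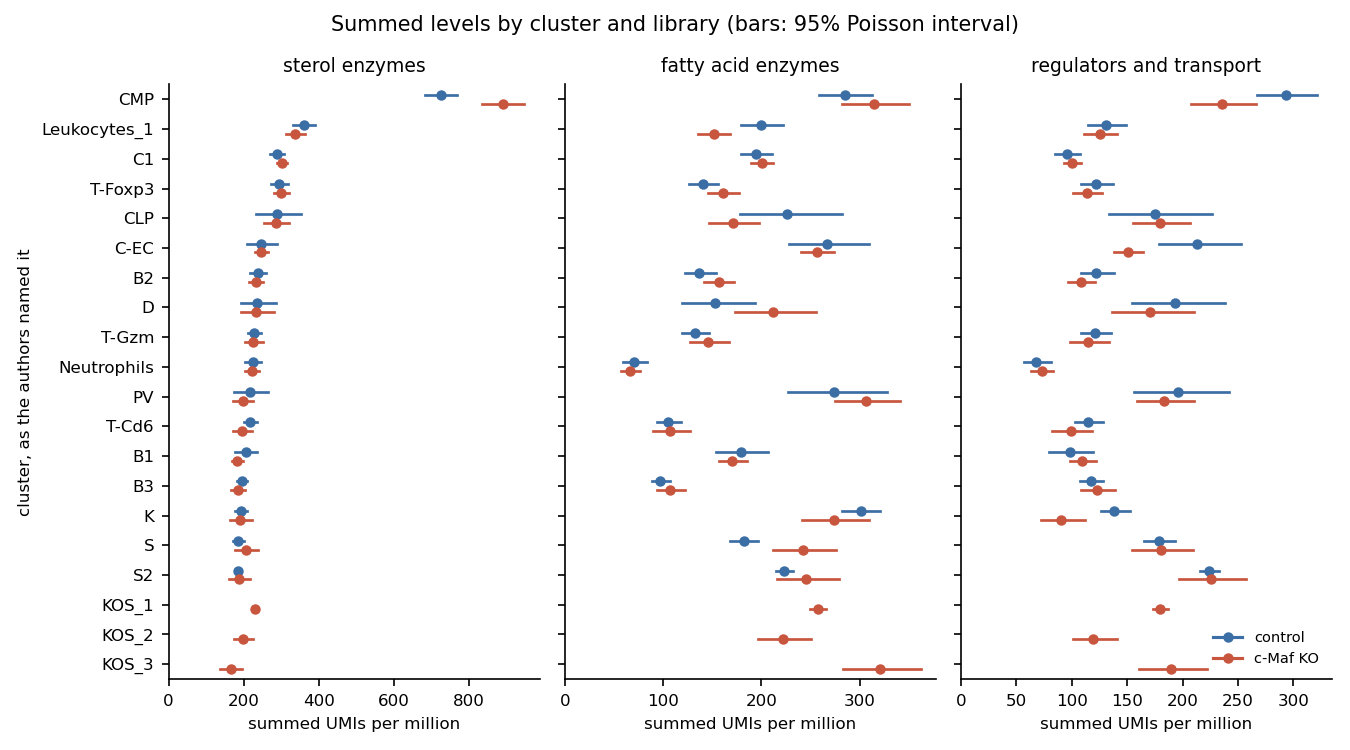
Summed level in CPM of the sterol enzymes, fatty acid enzymes and regulators in clusters of the control (blue) and c-Maf KO (red) libraries, with 95% Poisson intervals. CMP lies apart at 724 and 888 CPM of sterol enzymes, and the points of the 2 libraries lie close together in most hematopoietic clusters.

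Hematopoietic clusters with at least 50 cells in each library showed few member differences. In B1, B2, B3, C1, CLP, Leukocytes_1, T-Cd6 and T-Gzm, 0 members were called in either direction, of 12, 16, 18, 28, 7, 16, 13 and 16 that reached the minimum. The share of all genes called there was 3.71%, 3.65%, 3.06%, 3.69%, 5.43%, 4.79%, 4.4% and 7.5%, in the same order. In T-Foxp3 cells Scd2 was called higher, at 20.7 and 36.3 CPM (0.80, 0.30 to 1.33), 1 of 23 members beside 3.72% of all genes. In neutrophils Hmgcs1 was called higher, at 12.0 and 20.8 CPM, and Fdps lower, at 56.1 and 28.6 CPM, 2 of 9 members beside 8.76%.

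In CMP cells 3 of 20 members were called, beside 5.73% of all genes: Mvd at 23.8 and 38.8 CPM and Scd2 at 33.5 and 51.7 CPM were higher, and Srebf2 at 127 and 84.0 CPM lower. In Kupffer cells 2 of 15 were called, beside 11.1%. Acaca was at 8.79 and 29.4 CPM there (1.74, 0.92 to 2.56), and Insig2 at 26.7 and 12.0 CPM (-1.10, -2.21 to -0.25), lower as in sinusoidal cells. In cluster D, of 56 and 72 cells with both sinusoidal markers (6692 and 2874 CPM) and B lineage markers (4185 and 4873 CPM), Ebp and Scd2 were called higher of 3 members, beside 12.3%. Maf itself was also lower in the c-Maf KO library in these clusters, at 797 and 529 CPM in K, 111 and 2.77 CPM in CMP, 1260 and 368 CPM in D and 55.5 and 10.95 CPM in neutrophils. It was likewise called lower in clusters with 0 members called, among them T-Gzm at 204 and 77.0 CPM, C1 at 27.7 and 10.8 CPM and Leukocytes_1 at 53.6 and 27.7 CPM, and in T-Foxp3 it was not called, at 181 and 174 CPM. Whether the Maf counts of hematopoietic clusters come from their own cells was not tested.

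**Figure D4:**
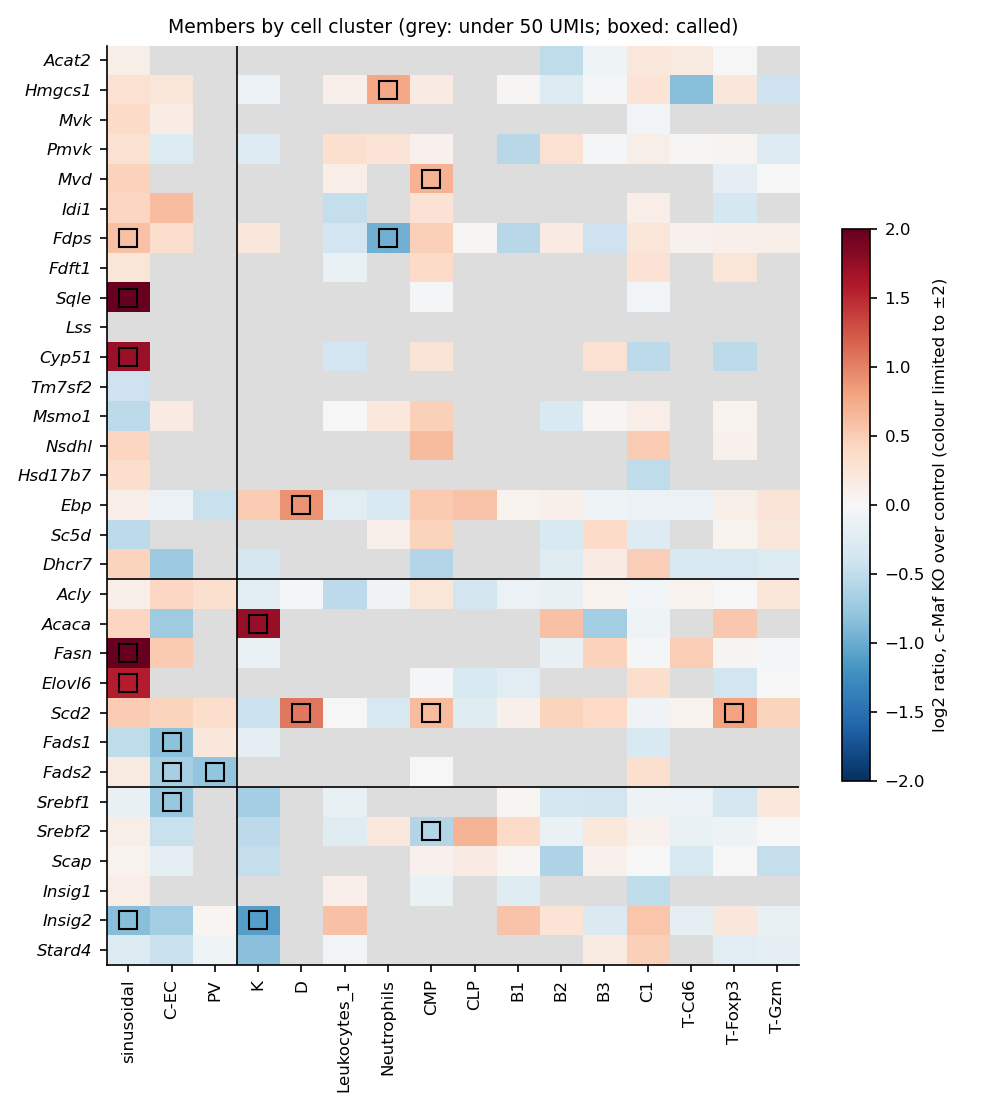
Map of the log2 of the c-Maf KO level over the control level for the 31 genes (rows, by role) in the sinusoidal clusters together, C-EC, PV, cluster D of mixed markers and 12 hematopoietic clusters (columns), grey where both sums hold under 50 UMIs and boxed where called. Sinusoidal cells hold 6 boxes, with Sqle, Cyp51, Fasn and Elovl6 in strong red and Insig2 in blue. Of all genes, 13.4% were called higher and 15.4% lower there. Fewer members reached 50 UMIs in every other column.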

How the data were processed

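The authors deposited whole UMI counts per gene and cell for 1 control and 1 c-Maf KO library, with a table of the cells they kept and their cluster names. The submitters' processing notes name Cell Ranger 4.0.0, Seurat 3.2.3, FastQC 0.11.3 and mm10; the labels state no counting settings. Cells were taken with the authors' cluster names, read as deposited; only annotated cells were used. The members and lists were chosen with earlier results of these data known.

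Counts were summed per cluster and library and divided by all counts of those cells. The log2 ratio has 0.5 UMIs added to each sum. Levels carry exact Poisson intervals, ratios exact conditional binomial intervals and shares exact Clopper-Pearson intervals, all at 95% and for counting error only. Calls needed 50 UMIs and 1.5-fold, medians 20 UMIs per gene. A count of 0 was read against a floor of 3 counts per library. Named genes are all 31 members, Maf, and of the other listed pathway genes up to 4 per direction by the size of the endothelial log2 ratio among those with 50 UMIs (Tmem97, Acsl3, Mylip, Abca1 and Soat1; others are not reported here). Acss2, Acsl4 and Erlin2 were named after their values were seen. Of 46 listed pathway symbols, 45 were found. Scrublet's automatic threshold marked 1 control and 148 c-Maf KO cells, which is too few in the control, so the top 5% of scores were left out as an alternative (28 and 57 endothelial cells). The procedure was tested on simulated data. Python 3.11.15, numpy 2.4.6, pandas 2.3.3, scipy 1.17.1, scanpy 1.11.5 and matplotlib 3.10.9 were used. Alternatives covered scaling, thinning to 1128 UMIs per cell, doublets, clusters left out, sex types and the thresholds.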

Additional observations from a re-analysis of the deposited data

Results flagged for a closer look

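Fdps, farnesyl diphosphate synthase, was called in opposite directions in 2 cell sets. Its log2 ratio of c-Maf KO to control was 0.587 in sinusoidal cells (16.2 and 24.4 CPM) and -0.967 in Neutrophils (56.1 and 28.6 CPM). The sinusoidal value lies just above the 1.5-fold limit. Over all endothelial cells Fdps was not called, and 7 of 16 alternatives called it. The difference between the cell sets was not tested, with 1 library per group. Fdps shares exon sequence with Gm43738 on the same strand.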

How the results depend on the processing

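Of the 31 genes, 5 were called higher and 1 lower in endothelial cells. The number called higher was 9 with totals that leave out mitochondrial, ribosomal protein and hemoglobin genes, 0 after thinning to equal depth, where 16 members reached 50 UMIs, 2 without cells carrying a cycling marker, and 13 at the lower of the fold thresholds tried. The number called lower was 2 without those cycling cells, 2 in male-type cells, 4 at that lower threshold, 0 at 2-fold, where Insig2 lost its call, and 4 between the deep clusters S2 and KOS_1, a comparison chosen after seeing the data. The Acat2 log2 ratio was -0.13 without cells carrying a cycling marker, against 0.70; the cause was not tested. Over 16 alternatives, which leave out the changed fold thresholds, Insig2 kept its call in 16, Fasn in 15, Elovl6 in 14, Sqle in 13, Cyp51 in 12 and Acat2 in 9. The median log2 ratio ranged from 0.20 to 0.54 for the sterol enzymes and from 0.19 to 0.62 for the fatty acid enzymes. No paired analysis was possible because each group has 1 library. The thinned values come from 1 draw, where Fasn, Sqle, Cyp51 and Elovl6 held under 50 UMIs each, with log2 ratios of 3.51, 2.05, 0.39 and 2.29. Depth limits Lss, which could not be called, and Sqle, Cyp51 and Elovl6, with 13, 27 and 34 control UMIs.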
